A study of Mus musculus with 18 samples.

Results

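The mRNA of XPO4 KO fibroblasts was compared with that of WT fibroblasts, over every autosomal gene with enough reads to test. The comparison used the samples whose titles name mRNA, 3 KO and 3 WT libraries, which are 6 of the 18 samples of the series. The other samples are circRNA libraries of nuclear, cytoplasmic and total RNA, sequenced to ask whether XPO4 carries circular RNAs out of the nucleus. All cells were NIH/3T3, an immortalised mouse embryonic fibroblast line. The WT cells carried no edit, and the KO cells were made from that line with CRISPR-Cas9, by a deletion in exon 1 of both copies of Xpo4 that shifts the reading frame. The KO is a line made by editing and was compared with cells that were not taken through that step, so effects of the edit and of deriving a line cannot be told apart. The labels name no treatment for either genotype.

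XPO4 belongs to the importin-beta family of transport receptors, which pass through nuclear pores and release or bind their loads under the control of the GTPase Ran. It is known for exporting the translation factor eIF5A and the TGF-beta mediator SMAD3 and for importing the transcription factor SOX2. Fibroblasts build and remodel the extracellular matrix, read growth factors and mechanical tension, and secrete chemokines and acute-phase proteins when NF-kB, a family of inducible transcription factors, is active.

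The labels and files disagreed in 3 respects that bear on every direction given here. In all 6 mRNA files the heading of the count column names the other genotype than the sample title, and the titles were followed, so each "higher in KO" would read "lower in KO" if the headings were right. The mRNA level of Xpo4 did not settle this. It stood at 39.8, 28.4 and 40.4 CPM (counts scaled to the size of each library) in the KO libraries and at 33.0, 31.5 and 31.2 CPM in the WT libraries, without a difference past the test (log2 fold change 0.18 ± 0.11, SE, edgeR's quasi-likelihood test, adjusted p = 0.193). Without KO replicate 2, the lowest KO library, the value was 0.34 with an adjusted p of 0.000252. The counts run over all exons and cannot show a short deletion in the first exon. In addition, 4 genes of the Y chromosome (Ddx3y, Eif2s3y, Kdm5d and Uty) had between 100 and 594 reads in each KO library and 0 reads in each WT library. Beyond that, the total circRNA libraries of both titles held 4 circles inside Uty, with 19 and 24 junction reads in KO and 10 and 12 in WT. The WT mRNA libraries held no Uty read. The protocol field in the labels also speaks of peripheral blood, while every other label gives NIH/3T3 cells.

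The libraries held between 16974062 and 22057323 counted reads, of which 96.7% to 97.2% fell on protein-coding genes and none on the 37 mitochondrial genes listed. Log2 CPM correlated at 0.9894 to 0.9935 within a genotype and at 0.9507 to 0.9596 between genotypes, over 14688 genes. KO replicate 2 stood farthest from its group, with a chi-square per gene of 10.6 and 12.3 against the other KO libraries and 3.68 between those. Summed fibroblast markers lay between 22000 and 24500 CPM in KO and between 24800 and 26300 CPM in WT, with all 15 markers read. Among the 14 blood markers Cd3e, S100a9, Hba-a2, Hbb-bs and Hbb-bt had 0 reads in all 6 libraries. Together the 14 lay between 6.26 and 6.98 CPM in KO and between 10.5 and 13.3 CPM in WT. Cd68 was the most abundant, at 3.65 and 5.98 CPM on average. Only 3 blood markers had enough reads to test, and 2 were lower and 1 higher in KO, 1 each by at least 2-fold. The 10 epithelial markers summed to between 0.563 and 1.40 CPM in KO and 4.98 and 5.46 CPM in WT, mostly from Krt14 (0.661 and 4.75 CPM on average), with Epcam, Krt18, Cldn3, Cldn4 and Grhl2 at 0 reads. Endothelial markers summed to between 1.29 and 2.23 CPM in KO and 2.09 and 3.03 CPM in WT, with Emcn and Tie1 at 0 reads. Neuronal markers summed to between 21.4 and 26.7 CPM in KO and 32.2 and 37.6 CPM in WT, with Rbfox3 and Nefl at 0 reads, and skeletal muscle markers to between 2.12 and 3.55 CPM in KO and 4.62 and 4.83 CPM in WT, with Myod1, Myf5 and Myf6 at 0 reads. Adipocyte markers summed to between 41.4 and 44.2 CPM in KO and 16.1 and 19.1 CPM in WT, mostly from lipoprotein lipase (Lpl), with Cebpa, Cidec, Cfd and Lep at 0 reads.

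KO and WT fibroblasts differed in many genes, mostly by small amounts. Of 14223 autosomal genes tested, 6927 (48.7%) differed at an adjusted p under 0.05, with 3545 (24.9%) higher and 3382 (23.8%) lower in KO. Of the called genes 61.4% changed by less than 1.5-fold. A change of at least 2-fold was called for 1370 genes (9.63%), with 597 higher (4.2%) and 773 lower (5.43%). These shares over all autosomal genes are the background for the gene lists below. Changes of at least 4-fold were called for 198 genes that rose and 208 that fell, and changes of at least 16-fold for 64 and 35. The CPM of the genotypes did not overlap for 57.9% of all tested genes, with KO above WT for 29.0% and below for 28.9%. Since the p-values rest on 3 libraries of a line for each genotype, and nothing says that these came from separate cultures, they measure only the spread between these libraries.

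**Figure D1:**
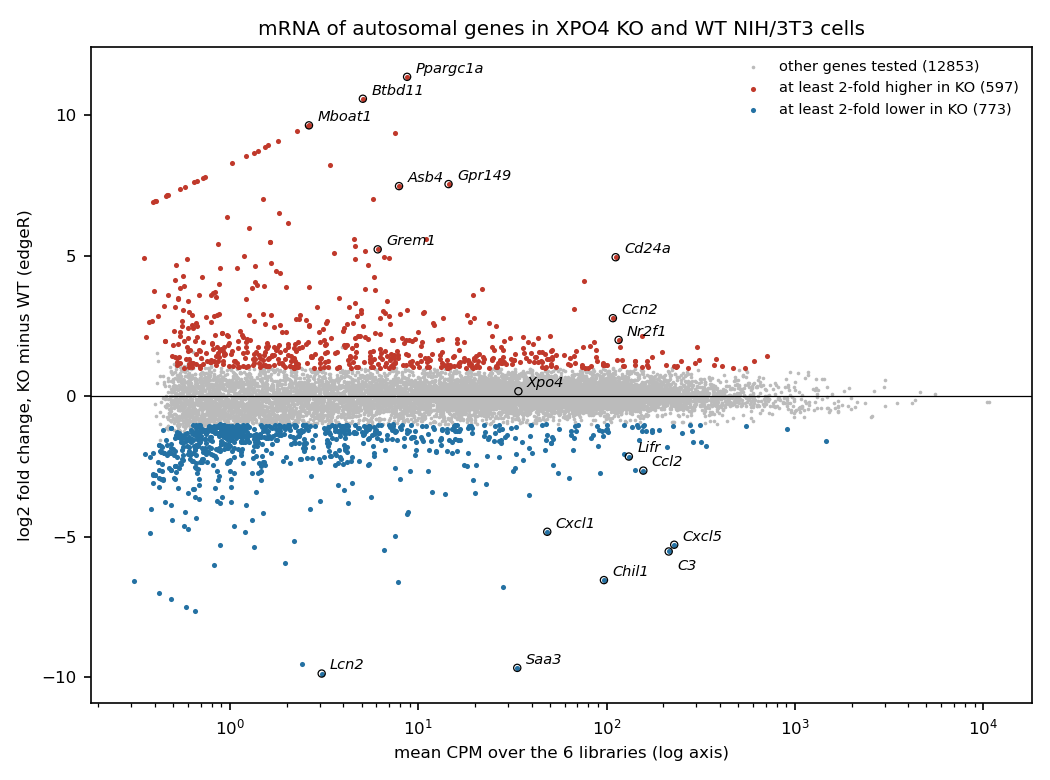
Each point is an autosomal gene, with its mean CPM over the 6 libraries on a log axis and its fitted log2 fold change (KO minus WT) on the vertical axis; red and blue points are the 597 genes at least 2-fold higher and the 773 at least 2-fold lower in KO. Open circles mark named genes: Cxcl5, C3 and Chil1 lie at high levels among the genes that fell, Cd24a and Ccn2 among those that rose, and Xpo4 lies near 0. The rising line of points at the upper left holds genes with 0 reads in WT, whose fitted fold depends on the small count that edgeR adds.

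The genes with the largest increase had few or no reads in the WT libraries. Ppargc1a, whose product PGC-1alpha is a coactivator that drives mitochondrial biogenesis, stood at 15.8, 15.6 and 21.0 CPM in KO and at 0 reads in every WT library. It was at least 356-fold higher (taking 3 reads over the WT group, 0.0489 CPM, as the highest level that a count of 0 allows). The lysophospholipid acyltransferase gene Mboat1 stood at 6.15, 5.52 and 4.11 CPM against 0 reads in WT and was at least 108-fold higher. All KO libraries thus read these genes and no WT library did. Btbd11 was at least 207-fold higher, the neutral amino acid transporter gene Slc6a15 at least 106-fold, Sobp at least 73.8-fold, and the LIM-domain cofactor genes Lmcd1 and Ldb2 at least 65.6-fold and 62.9-fold, each with 0 reads in all WT libraries. The uncharacterised 1500011B03Rik was at least 93.6-fold higher. In all, 24 genes called higher had 0 reads in every WT library and 7 called lower had 0 reads in every KO library.

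Others among the highest had a few WT reads. Pappa2, a protease that cleaves IGF-binding proteins, stood at 14.7, 12.8 and 17.9 CPM in KO and had 1 read over the WT group, a ratio of 926 with a 95% counting interval of 166 to 36600. The orphan receptor gene Gpr149 stood at 30.6, 25.9 and 30.0 CPM in KO and at 0.100, 0.205 and 0.137 CPM in WT (log2 fold change 7.56 ± 0.20, edgeR adjusted p = 8.51e-12). Asb4, a SOCS-box protein gene, stood at 16.7, 15.8 and 14.7 CPM against 0 to 0.182 CPM (log2 fold change 7.48 ± 0.30, edgeR adjusted p = 5.05e-10). The lowest KO library lay far above the highest WT library for each of them, where the naming rule required that the genotypes not overlap. The remaining genes of this set were the Golgi GTPase gene Rab6b (ratio 417, interval 74.4 to 16500), Ppp1r3b, which targets protein phosphatase 1 to glycogen (ratio 183, interval 32.3 to 7270), the glycosyltransferase gene B4galnt4 (ratio 111, interval 30.2 to 920) and Gm21680 (log2 fold change 7.01 ± 0.35). These counting intervals cover counting error only.

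**Figure D2:**
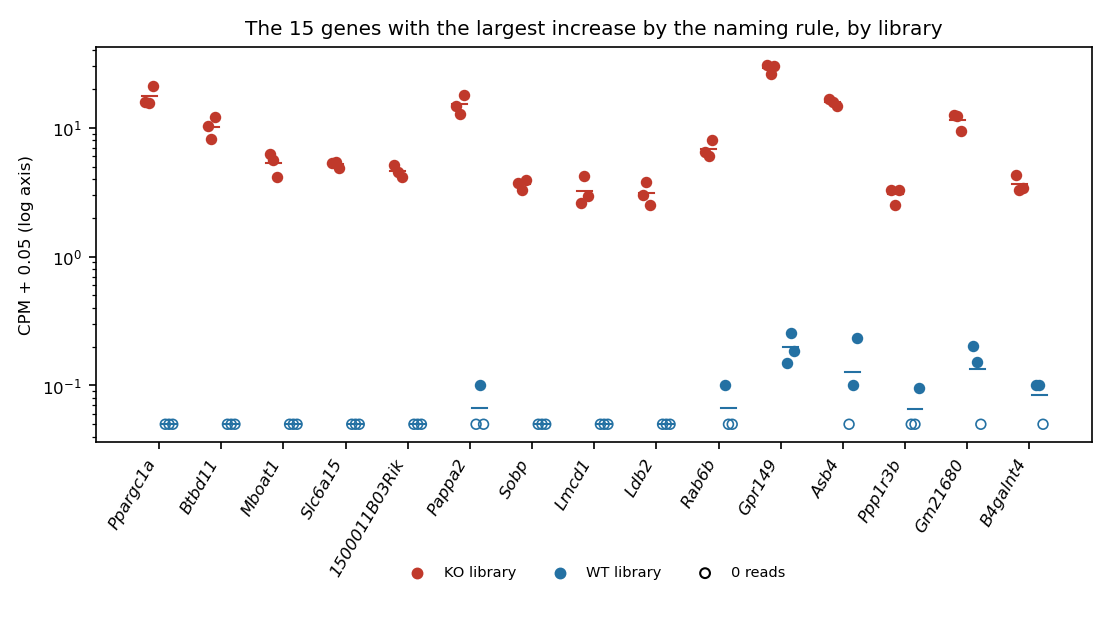
CPM plus 0.05 on a log axis in each library for the 15 autosomal protein-coding genes with the largest increase, with KO in red, WT in blue, open symbols for 0 reads and short lines for the mean of 3 libraries. For each of the 15 genes all KO libraries lie above all WT libraries, as the naming rule required, and for 8 of them every WT library is at 0 reads.

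The total circRNA libraries gave another reading for some of these genes. Among the 61 protein-coding autosomal genes at least 16-fold higher in KO mRNA, 11 held circles in the KO and 11 in the WT total libraries, and these were the same 11 genes. For Ppargc1a the junction reads were 4 and 8 in the KO and 7 and 4 in the WT total libraries, and for Mboat1 they were 9 and 12 against 5 and 5. Circles lying within both genes were thus read in RNA titled WT in that assay, while the mRNA libraries titled WT held no read of either. Of the 11 genes, 6 had circles in the WT total libraries and 0 WT mRNA reads, Ppargc1a and Mboat1 among them. Among the others Kcnip3 had 5 and 4 WT junction reads, Trhde 1 and 1, and Hecw1 and Sobp 1 and 0 each. Circles were assigned to genes by position alone, without regard to strand. Of the 25 protein-coding genes at least 16-fold lower in KO mRNA, none held a circle in any of the 4 total libraries. The share of all tested genes that hold a circle was not computed, so these counts cannot be set against a background.

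The genes with the largest decrease had various roles. Saa3, a serum amyloid A protein of the acute phase, stood at 0, 0.0563 and 0.176 CPM in KO and at 68.5, 62.7 and 70.0 CPM in WT (log2 fold change -9.67 ± 0.21, edgeR adjusted p = 1.25e-12). The siderophore-binding lipocalin gene Lcn2 had 0 reads in every KO library and stood at 6.23, 6.06 and 6.15 CPM in WT, so that it was at least 108-fold lower. Haptoglobin (Hp), which binds free haemoglobin, stood at 0.559, 1.52 and 0.764 CPM in KO and at 15.1, 18.1 and 16.9 CPM in WT (log2 fold change -4.13 ± 0.22). The genotypes did not overlap for any of them, as the naming rule required. The metalloreductase gene Steap4, which reduces iron and copper, also had 0 reads in KO and was at least 85.3-fold lower. Chil1, a secreted chitinase-like glycoprotein, fell from 192 ± 11.0 to 2.05 ± 0.403 CPM (mean ± SD, n = 3; 93.2-fold). Complement component C3 fell from 419 ± 21.2 to 9.10 ± 1.34 CPM (46.0-fold). The protease inhibitor genes Serpina3i and Serpina3f fell 98.1-fold and 44.0-fold, and reads of this family may be split between near-identical copies.

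Plekha6 had 3 reads over the KO group against 237 in WT (ratio 67.8, counting interval 22.9 to 331). The organic anion transporter gene Slco4a1 (log2 fold change -5.15 ± 0.47), Tmem132b (-4.39 ± 0.51), Mdga1, which encodes a membrane-anchored adhesion protein (-4.19 ± 0.18), and Fibcd1, a receptor for acetylated sugars (-4.17 ± 0.43), fell as well. Each of them stood under 20 CPM in WT.

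Among abundant genes, with a mean of at least 100 CPM over the 6 libraries, Cd24a rose most. This gene of a small sialoglycoprotein at the cell surface stood at 207, 225 and 218 CPM in KO and at 6.68, 7.24 and 7.06 CPM in WT (31.0-fold, log2 fold change 4.95 ± 0.07). Ccn2, the connective tissue growth factor gene, rose from 27.4 ± 1.05 to 189 ± 13.1 CPM (6.88-fold), and Nr2f1, a nuclear receptor gene, from 46.1 ± 3.46 to 186 ± 9.15 CPM (4.02-fold). The spread within a genotype was small beside these differences. The 10 largest changes at this level were these 3 increases and decreases of C3, Cxcl5, Ccl2, Slpi, Lifr, Serpina3n and Rasl11a. The protease inhibitor gene Slpi fell 6.22-fold, from 244 ± 12.6 to 39.2 ± 2.88 CPM, and the small GTPase gene Rasl11a 3.50-fold, from 326 ± 7.74 to 93.3 ± 5.97 CPM.

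Genes of the NF-kB pathway and its targets lay lower in KO as a group. Of 30 listed members 27 were tested, and 21 were lower and 2 higher in KO, with 13 at least 2-fold lower and none 2-fold higher. Their median log2 fold change was -0.72, beside -0.0045 over all autosomal genes (23.8% lower and 5.43% at least 2-fold lower). Among the transcription factor subunits, Nfkb1 stood at 114, 98.1 and 111 CPM in KO and at 169, 162 and 150 CPM in WT (log2 fold change -0.57 ± 0.07, edgeR adjusted p = 1.51e-05), and Rela fell by 0.24 ± 0.05 on the log2 scale. The inhibitors and feedback regulators fell further. Nfkbia, which encodes the inhibitor that holds NF-kB in the cytoplasm, stood at 38.8, 46.3 and 39.0 CPM in KO and at 136, 142 and 141 CPM in WT (3.37-fold lower, edgeR adjusted p = 5.12e-10). Tnfaip3, the gene of the ubiquitin-editing brake A20, stood at 2.74, 2.98 and 1.65 CPM against 16.1, 15.4 and 15.3 CPM (6.31-fold lower). The nuclear cofactor gene Bcl3 stood at 17.7, 15.9 and 14.5 CPM against 65.7, 61.2 and 65.9 CPM (4.01-fold lower). For each of these regulators the KO libraries all lay below the WT libraries. The prostaglandin enzyme genes Ptgs2 and Ptges were the members that rose, by 0.64 ± 0.06 and 0.22 ± 0.05 on the log2 scale.

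**Figure D3:**
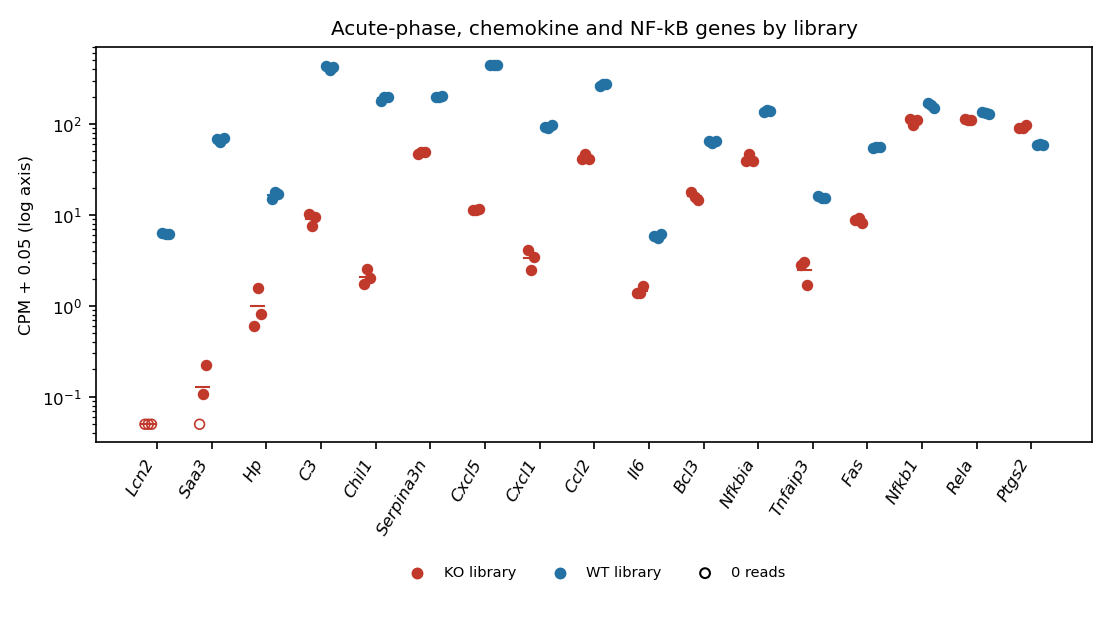
CPM plus 0.05 on a log axis in each library for acute-phase, chemokine and NF-kB genes, with KO in red, WT in blue, open symbols for 0 reads and short lines for the mean of 3 libraries. From Lcn2 to Rela every KO library lies below every WT library, and Ptgs2, at the right, shows the opposite order.

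The promoter letters of members of this list are shown because they moved together. RefSeq promoter sequences on GRCm38.p6 were matched by symbol for 9244 of the 11763 autosomal protein-coding genes tested, and the 250 bases before each start site were searched on both strands. The NF-kB consensus was present in 8.23% of all 27025 genes with a promoter in the table, in 10.5% of the tested genes, in 15.1% of those at least 2-fold lower and 11.6% of those at least 2-fold higher, in 25.9% of the 85 at least 4-fold lower and in 7.52% of the 133 at least 4-fold higher. Of the 20 tested members of the NF-kB list with a promoter, 10 held it. A match is a description of letters and not a bound site. Below, 100 bases of 4 promoters run 5′ to 3′ on the gene's strand, with matches to the NF-kB consensus in capitals. Il6, Nfkbia and Tnfaip3, and with them Bcl3, Nfkb1 and Rela above, were chosen after their values were seen.
Cxcl1 promoter, chr5:90891130-90891229, plus strand: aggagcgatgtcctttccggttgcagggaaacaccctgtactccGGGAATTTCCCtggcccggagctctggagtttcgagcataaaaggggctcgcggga
Il6 promoter, chr5:30013014-30013113, plus strand: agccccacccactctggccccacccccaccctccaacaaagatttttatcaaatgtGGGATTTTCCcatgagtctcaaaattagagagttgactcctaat
Nfkbia promoter, chr12:55492648-55492747, minus strand: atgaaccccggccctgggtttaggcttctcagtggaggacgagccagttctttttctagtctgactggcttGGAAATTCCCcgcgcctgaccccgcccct
Tnfaip3 promoter, chr10:19015411-19015510, minus strand: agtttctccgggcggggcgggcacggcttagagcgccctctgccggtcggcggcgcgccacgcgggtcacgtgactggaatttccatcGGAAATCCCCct

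In Cxcl1 the capitals hold 2 overlapping matches, and for Tnfaip3 1 of 2 matches in the 250 bases is shown. Saa3 and C3, which fell furthest among the listed members with reads in both genotypes, had no match to the NF-kB consensus in this window. They held the motif TTNNGNAA of the C/EBP family, which is short and common. It was present in 40.3% of all promoters in the table, in 31.7% of the tested genes, in 37.8% of those at least 2-fold lower and 35.3% of those at least 2-fold higher, in 49.4% of those at least 4-fold lower and in 39.8% of those at least 4-fold higher. Of the 20 tested members of the NF-kB list with a promoter, 9 held it. The C/EBP genes Cebpb and Cebpd fell by 0.69 ± 0.08 and 0.49 ± 0.07 on the log2 scale, and a link to Saa3 or C3 was not tested. In the next 2 sequences the matches to TTNNGNAA on either strand are in capitals, 2 of 4 for Saa3.
Saa3 promoter, chr7:46715722-46715821, minus strand: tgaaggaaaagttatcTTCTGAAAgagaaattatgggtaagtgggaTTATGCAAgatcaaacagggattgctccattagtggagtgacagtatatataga
C3 promoter, chr17:57228137-57228236, minus strand: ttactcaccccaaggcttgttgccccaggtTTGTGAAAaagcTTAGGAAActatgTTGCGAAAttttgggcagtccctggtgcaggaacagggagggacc

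Chemokines and cytokines were lower in KO more often than higher. Of 28 tested genes of the list of 50, 15 were lower and 6 higher, with 12 and 2 by at least 2-fold, and the median log2 fold change was -0.43. The summed blood markers, at 6.26 to 6.98 CPM in KO and 10.5 to 13.3 CPM in WT, lay lower in KO as well, with Cd68 the most abundant. Of the 3 tested singly, 2 were lower and 1 was higher in KO, the latter by 2.64 on the log2 scale. Their part in the result was not tested. The neutrophil chemokine gene Cxcl5 stood at 11.3, 11.4 and 11.7 CPM in KO and at 446 CPM in each WT library (38.9-fold lower, edgeR adjusted p = 4.31e-15), and Cxcl1 at 4.08, 2.42 and 3.41 CPM against 93.2, 89.9 and 97.6 CPM (28.3-fold lower). The monocyte chemokine gene Ccl2 stood at 41.4, 47.2 and 41.1 CPM against 264, 273 and 275 CPM (6.25-fold lower). For these chemokines every KO library lay below every WT library, which the naming rule required of Cxcl5 and Cxcl1. Ccl5 fell from 2.33 ± 0.412 to 0.0774 ± 0.0901 CPM, the granulocyte growth factor gene Csf3 from 1.67 ± 0.265 to 0.112 ± 0.148 CPM, and Il6 from 5.84 ± 0.232 to 1.43 ± 0.139 CPM. Ccl9 rose, from 1.20 ± 0.376 to 7.19 ± 0.21 CPM, and the lymphocyte growth factor gene Il15 rose by 1.02 ± 0.23 on the log2 scale.

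Of 39 cytokine receptors tested, 17 were lower and 10 higher in KO (7 and 2 by at least 2-fold, median log2 fold change -0.14). Over all autosomal genes 23.8% were lower and 24.9% higher, and the share of receptors that were higher lay near the latter. The death receptor gene Fas fell from 55.2 ± 1.07 to 8.65 ± 0.477 CPM, 6.37-fold. The leukaemia inhibitory factor receptor gene Lifr fell 4.42-fold, from 214 ± 8.69 to 48.5 ± 5.64 CPM, and the oncostatin M receptor gene Osmr 3.08-fold, from 437 ± 4.31 to 142 ± 5.57 CPM. Tnfrsf11a, the receptor for the osteoclast factor RANKL, rose from 0.114 to 3.19 CPM on average, and the cytokine receptor chain gene Csf2rb from 1.40 to 11.6 CPM.

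Serpins, genes of antigen presentation and complement, and metal handling genes were lower more often than higher, though each list held genes that rose. Of 16 serpins tested 8 were lower and 2 higher (6 and 1 by at least 2-fold, median -0.16), and 27 of the 60 listed had 0 reads in all libraries. Serpina3n fell 4.12-fold, from 199 ± 1.66 to 48.3 ± 1.52 CPM, Serpina3g by 3.58 ± 0.22 and antithrombin (Serpinc1) by 2.96 ± 0.45 on the log2 scale, while Serpinb9b rose by 2.19 ± 0.49. Of 26 genes of antigen presentation and complement 11 were lower and 6 higher (6 and 1 by at least 2-fold, median -0.14). The share that was higher lay near the 24.9% over all autosomal genes, of which 23.8% were lower. The complement genes C4b (log2 fold change -2.03 ± 0.10), C1s2 (-1.64 ± 0.10) and the C1 inhibitor gene Serping1 (-2.27 ± 0.40) fell with C3. The class I genes H2-D1 and B2m rose by 0.55 ± 0.06 and 0.55 ± 0.07, and the complement brake gene Cd55 by 1.20 ± 0.16. Of 18 genes of metallothioneins and metal transport 10 were lower and 5 higher, with 4 at least 2-fold lower and none 2-fold higher. Beside Steap4 these were the zinc importer gene Slc39a4 (-3.76 ± 0.55), ceruloplasmin (Cp, -1.20 ± 0.06) and the iron transporter gene Slc11a2 (-1.20 ± 0.06).

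Interferon-stimulated genes moved both ways. Of 39 tested 16 were lower and 13 higher (7 and 3 by at least 2-fold), with a median log2 fold change of -0.04. The antiviral genes Oasl2 (-2.48 ± 0.58), Ifi44 (-2.03 ± 0.29) and Ifit1 (-1.30 ± 0.19) fell, and the double-stranded RNA sensor gene Ifih1 (3.23 ± 0.61) and Ifit3b (1.82 ± 0.26) rose. These genes stood under 7 CPM in both genotypes, and reads of the Ifit family may be shared between close copies.

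Extracellular matrix genes moved in both directions. Of 55 matrix glycoproteins and proteoglycans tested 27 were higher and 19 lower in KO, with 13 and 10 by at least 2-fold. Osteoglycin (Ogn), a small leucine-rich proteoglycan, stood at 38.1, 33.7 and 36.8 CPM in KO and at 3.32, 1.95 and 3.60 CPM in WT (12.1-fold higher, edgeR adjusted p = 5.13e-10). Decorin (Dcn), a proteoglycan of the same family, stood at 143, 155 and 161 CPM against 511, 526 and 537 CPM (3.42-fold lower), although chromosome 10, where it lies, had a median shift towards higher levels. Related proteoglycans thus moved apart, without overlap of the genotypes. Fibromodulin (Fmod) fell 5.30-fold from 9.18 ± 0.767 CPM, Prelp by 1.85 ± 0.07 and tenascin X (Tnxb) by 1.90 ± 0.09 on the log2 scale. The matricellular genes Ccn1 and Smoc2 rose by 1.57 ± 0.06 and 1.61 ± 0.06.

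Of 24 collagen genes tested 13 were higher and 7 lower (6 and 3 by at least 2-fold, median 0.27). Col15a1, of a collagen next to basement membranes, rose from 0.149 ± 0.0572 to 3.36 ± 0.239 CPM, and the basement membrane chain gene Col4a2 by 1.24 ± 0.07 on the log2 scale. Col12a1, whose product coats collagen fibrils, stood at 111, 80.6 and 114 CPM in KO and at 271, 236 and 229 CPM in WT (2.41-fold lower). The fibrillar Col1a1 fell 1.26-fold, from 3356 ± 116 to 2659 ± 241 CPM. Of 23 collagen-modifying enzyme genes 10 were higher and 4 lower, with 1 of them by at least 2-fold.

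Matrix proteases and inhibitors counted 16 higher and 15 lower of 40 tested (5 and 6 by at least 2-fold). The collagen-degrading cathepsin gene Ctsk rose from 0.278 ± 0.13 to 10.1 ± 0.719 CPM, and the aggrecan-cleaving protease genes Adamts5 and Adamts1 by 1.75 ± 0.08 and 1.41 ± 0.07 on the log2 scale. The membrane protease gene Adam12 fell 8.70-fold, from 41.0 ± 1.89 to 4.72 ± 0.549 CPM, and the gelatinase gene Mmp9 4.50-fold, from 43.8 ± 1.11 to 9.74 ± 0.295 CPM. Of 31 genes of glycosaminoglycan synthesis and turnover 12 were lower and 10 higher (3 each by at least 2-fold). The hyaluronan synthase gene Has2 (-1.42 ± 0.07) and the hyaluronan-degrading Cemip (-1.62 ± 0.09) both fell. The heparan sulfatase genes Sulf1 (2.54 ± 0.25) and Sulf2 (-2.27 ± 0.07) moved in opposite directions.

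Integrins were higher more often than lower. Of 17 integrin subunits 11 were higher and 4 lower in KO, and the 3 changes of at least 2-fold were increases. Itga8, the partner of beta1 in a receptor for nephronectin, rose by 2.29 ± 0.15 on the log2 scale, while the fibronectin receptor chain gene Itga5 fell by 0.52 ± 0.05. Of 10 cadherins and protocadherins 4 were higher and 3 lower (3 and 1 by at least 2-fold), with Pcdh10 at 3.89 ± 0.40, N-cadherin (Cdh2) at 1.04 ± 0.07 and Fat4 at -0.63 ± 0.11. Of 42 axon guidance ligands and receptors 13 were higher and 19 lower (5 and 6 by at least 2-fold). The repellent Slit2 rose by 1.27 ± 0.08 to 233 CPM on average, and the ephrin receptor gene Epha7 by 2.97 ± 0.20, while the semaphorin receptor gene Plxnb1 fell by 1.32 ± 0.09.

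Actin and myosin genes were higher in KO. Of 37 tested genes of this list 27 were higher and 3 lower (8 and 2 by at least 2-fold), with a median log2 fold change of 0.40. Smooth muscle actin (Acta2), a gene that marks contractile fibroblasts, stood at 405, 422 and 395 CPM in KO and at 170, 183 and 186 CPM in WT (2.27-fold higher, edgeR adjusted p = 2.43e-09). The myosin light chain genes Myl9 (2.02 ± 0.12) and Myl6 (1.34 ± 0.06) and the light chain kinase gene Mylk (1.48 ± 0.11) rose with it. Calponins differed among themselves. Cnn2 rose by 1.76 ± 0.06, and Cnn1 fell 5.46-fold, from 29.5 ± 1.34 to 5.40 ± 0.466 CPM. Of the risen genes Myl6 and Cnn2 lie on chromosome 10.

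TGF-beta target genes and YAP/TEAD target genes, which read growth factor and tension signals, were higher more often than lower. These lists share members such as Ccn2, so their counts are not independent. Of 23 TGF-beta targets 11 were higher and 7 lower (5 and 1 by at least 2-fold), and of 20 YAP/TEAD targets 8 were higher and 4 lower (4 and 0), or 2 lower without KO replicate 1, WT replicate 1 or WT replicate 3. With all libraries, the share of YAP/TEAD targets that were lower lay near the 23.8% over all autosomal genes. Pmepa1, a brake on TGF-beta receptor signalling, stood at 41.5, 47.1 and 43.2 CPM in KO and at 6.63, 7.96 and 8.79 CPM in WT (5.62-fold higher). Ccn1 stood at 272, 313 and 302 CPM against 101, 95.1 and 103 CPM (2.97-fold higher). Both genes were apart in all libraries. The muscle ankyrin repeat gene Ankrd1 rose by 1.23 ± 0.08 and the growth regulator gene Fjx1 by 2.75 ± 0.31, while the transcription factor gene Junb fell by 0.83 ± 0.06. The 1 TGF-beta target at least 2-fold lower was Cnn1, named above (log2 fold change -2.45).

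Of 40 SMADs and other genes of TGF-beta and BMP signalling 17 were lower and 11 higher (2 and 5 by at least 2-fold). The share that was higher lay near the 24.9% over all autosomal genes. Smad3 itself stood at 117, 97.0 and 109 CPM in KO and at 106, 97.2 and 103 CPM in WT, with no difference past the test (log2 fold change 0.08, edgeR adjusted p = 0.361). Without KO replicate 2 the value for Smad3 was 0.16 and passed, with an adjusted p of 0.0197. Secreted antagonists moved in both directions. The BMP antagonist gene Grem1 stood at 12.9, 11.1 and 11.7 CPM in KO and at 0.251, 0.308 and 0.364 CPM in WT (37.6-fold higher, edgeR adjusted p = 5.13e-10), and the activin-binding Fstl3 rose 8.52-fold, from 1.03 ± 0.238 to 8.92 ± 0.237 CPM. The BMP antagonist gene Nbl1 stood at 28.3, 30.1 and 24.4 CPM against 103, 102 and 108 CPM (3.78-fold lower), and follistatin (Fst) fell 3.36-fold. The latent TGF-beta binding protein genes also parted, with Ltbp4 4.27-fold higher (69.9 ± 4.79 against 16.4 ± 2.80 CPM) and Ltbp2 lower by 1.00 ± 0.06 on the log2 scale.

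Among Wnt pathway genes 15 of 34 were higher and 7 lower, and the 5 changes of at least 2-fold were increases. The share that was lower lay near the 23.8% over all autosomal genes. The secreted Wnt antagonist genes Sfrp1, at 118, 114 and 128 CPM against 15.3, 13.2 and 13.3 CPM (8.61-fold), and Dkk2, at 9.17, 9.57 and 8.28 CPM against 0.201, 0.257 and 0.182 CPM (41.3-fold), rose without overlap. The receptor gene Fzd3 fell by 0.89 ± 0.11. Of 30 growth factors tested 15 were higher and 8 lower (6 and 3 by at least 2-fold), or 5 lower without WT replicate 1 or WT replicate 3. Fgf2 rose 3.88-fold, from 3.81 ± 0.348 to 14.8 ± 0.384 CPM, and Igf1, on chromosome 10, 3.82-fold, from 7.24 ± 0.754 to 27.6 ± 1.25 CPM. The stromal chemoattractant gene Cxcl12 fell 2.49-fold, from 360 ± 16.3 to 145 ± 4.45 CPM, and hepatocyte growth factor (Hgf) by 1.08 ± 0.10.

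MAPK feedback genes, which are induced by and limit growth factor signalling, rose in most cases. Of 21 tested 15 were higher and 4 lower (6 and 2 by at least 2-fold), and the median was 0.40. Among the receptor-level inhibitors Spry1 and Spry2 rose by 1.40 ± 0.15 and 1.35 ± 0.06 on the log2 scale, and among the MAP kinase phosphatases Dusp1 and Dusp6 by 1.32 ± 0.08 and 1.13 ± 0.07. The phosphatase genes Dusp2 (-1.55 ± 0.43) and Dusp8 (-1.23 ± 0.17) fell. Of 22 immediate-early transcription factors 9 were higher and 9 lower (2 each by at least 2-fold), with Nr4a1 (1.64 ± 0.08) and Fos (1.08 ± 0.14) up and Klf4 (-1.18 ± 0.06) and Myc (-0.86 ± 0.06) down. Of 21 angiogenic and vascular genes 8 were higher and 4 lower (4 and 2 by at least 2-fold), among them the vessel-stabilising Angpt1 (2.02 ± 0.19), adrenomedullin (Adm, 1.21 ± 0.11) and the endothelin receptor gene Ednra (-1.24 ± 0.11).

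**Figure D4:**
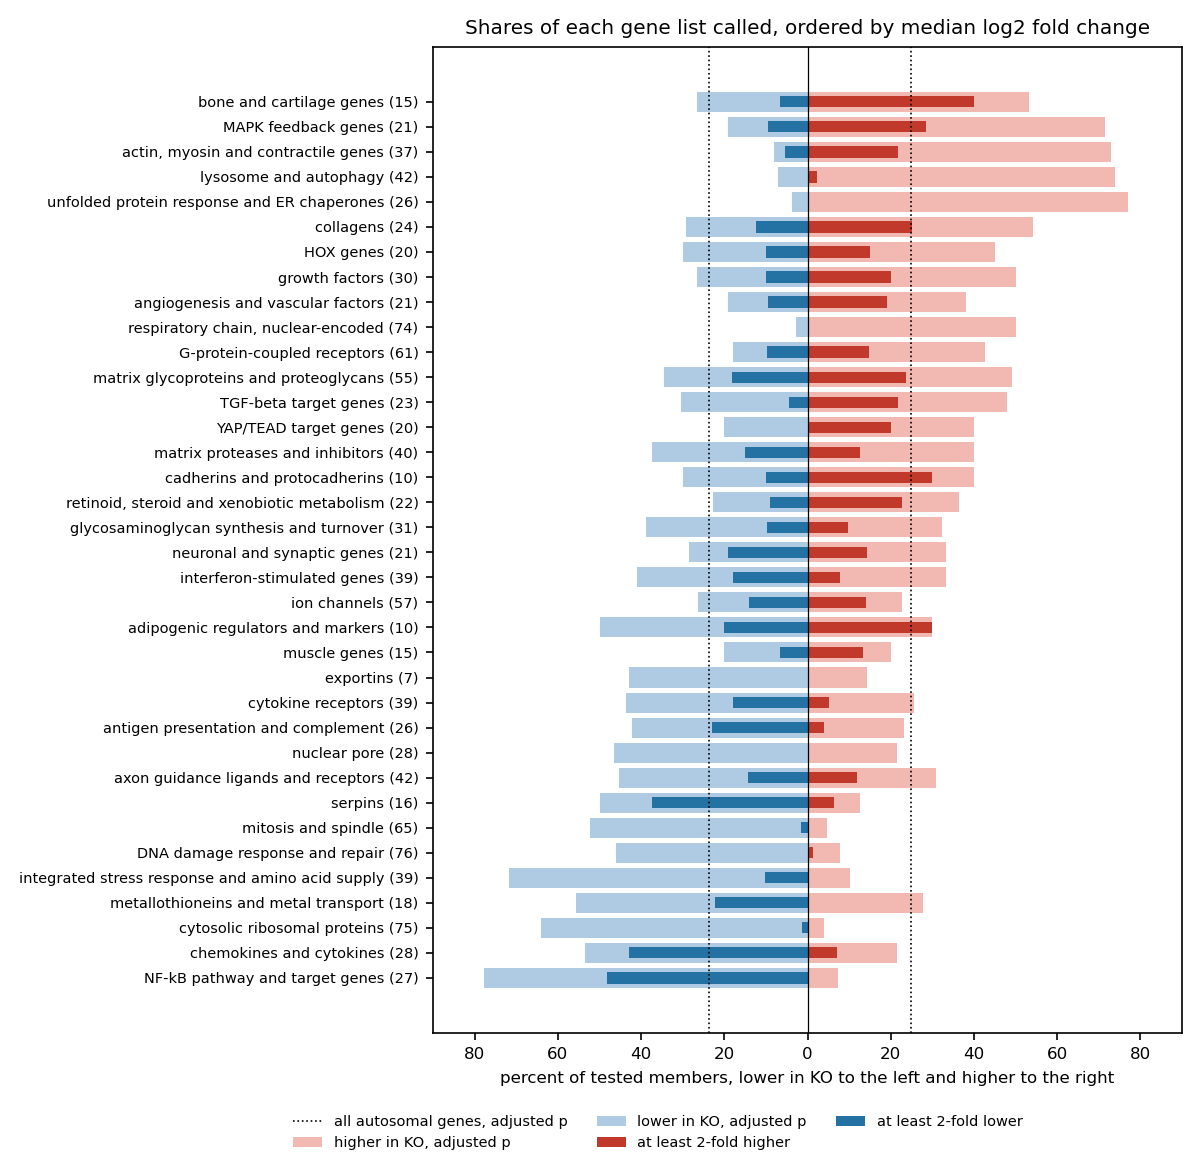
Shares of the tested members of each list that were higher (right, pale and dark red) or lower in KO (left, pale and dark blue), with the number tested in parentheses, for lists with a large share of 2-fold changes and for selected lists of cell machinery. Pale bars count an adjusted p under 0.05, dark bars a change of at least 2-fold, and dotted lines give the shares over all autosomal genes (24.9% higher, 23.8% lower). NF-kB genes stand at the bottom with 13 of 27 at least 2-fold lower, and the genes of the unfolded protein response have 20 of 26 higher with none at 2-fold.

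Genes of body position and lineage moved in both directions. Of 20 Hox genes tested 9 were higher and 6 lower (3 and 2 by at least 2-fold). Hoxa10 stood at 2.40, 3.10 and 2.53 CPM in KO and at 0 reads in WT (at least 54.7-fold higher), and Hoxb9 rose by 3.88 ± 0.34 on the log2 scale. Hoxc9 stood at 1.84, 3.60 and 2.88 CPM in KO and at 10.3, 10.5 and 10.8 CPM in WT (3.80-fold lower), and Hoxc8 fell by 2.39 ± 0.28. Those named of the HoxA and HoxB clusters rose and those named of the HoxC cluster fell. They were picked for the size of their change, and the 20 tested genes were not counted by cluster. Of 15 bone and cartilage genes 8 were higher and 4 lower (6 and 1 by at least 2-fold, median 0.69), with Ogn, the cartilage collagen gene Col2a1 (2.77 ± 0.31) and the mineralisation inhibitor gene Enpp1 (2.14 ± 0.09) higher and Chad (-1.51 ± 0.47) lower, though Chad did not pass without KO replicate 1 or WT replicate 1. Of 10 adipogenic genes 3 were higher and 5 lower (3 and 2 by at least 2-fold). The angiotensinogen gene Agt (3.78 ± 0.21), the fatty acid carrier gene Fabp4 (2.72 ± 0.27) and Lpl (1.17 ± 0.08) rose, and resistin (Retn, -2.24 ± 0.26) fell. The adipocyte markers Cebpa, Cidec, Cfd and Lep were at 0 reads in all libraries. Of 15 muscle genes 3 were higher and 3 lower (2 and 1 by at least 2-fold), so that 40.0% were called, beside 48.7% over all autosomal genes.

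Of 21 neuronal and synaptic genes 7 were higher and 6 lower (3 and 4 by at least 2-fold). The neuronal tubulin gene Tubb3 averaged 1.48 CPM in KO and had 0 reads in WT (at least 30.3-fold higher), and the synaptic adhesion gene Nrxn2 fell from 34.6 to 4.37 CPM on average (log2 fold change -2.98 ± 0.10). Of 57 ion channels 13 were higher and 15 lower (8 each by at least 2-fold). This came to 49.1% called and 28.1% at 2-fold, beside 48.7% and 9.63% over all autosomal genes. The T-type calcium channel gene Cacna1g fell by 3.52 ± 0.12, from 71.1 to 6.20 CPM on average, and the potassium channel gene Kcnk3 rose by 2.62 ± 0.21. Of 61 G-protein-coupled receptors 26 were higher and 11 lower (9 and 6 by at least 2-fold), with the adhesion receptor genes Adgrg6 at least 50.1-fold higher and Adgrb2 lower by 1.58 ± 0.12. Of 22 genes of retinoid, steroid and xenobiotic metabolism 8 were higher and 5 lower (5 and 2 by at least 2-fold). The progesterone-inactivating Akr1c18 (5.12 ± 0.35), the retinoic acid synthesis gene Aldh1a1 (3.47 ± 0.59) and the retinal reductase gene Dhrs3 (2.85 ± 0.18) rose, and Aldh3a1 (-1.94 ± 0.13) fell.

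Genes of the transport machinery of which XPO4 is a member moved by small amounts. None of the 7 exportins, 16 importins, 7 Ran cycle genes, 28 nuclear pore genes and 19 mRNA export genes tested changed by at least 2-fold, beside 9.63% of all autosomal genes. The lists of replication, translation and respiratory chain genes held no such change either. By adjusted p, 57.1% of the exportins, 37.5% of the importins and 42.9% of the Ran cycle genes were called. The shares were 67.9% of the nuclear pore genes and 42.1% of the mRNA export genes, beside 48.7% over all autosomal genes. Xpo5, which exports pre-miRNAs, stood at 132, 128 and 135 CPM in KO and at 164, 157 and 157 CPM in WT (log2 fold change -0.28 ± 0.05, edgeR adjusted p = 0.000818). Xpo7 (-0.20 ± 0.07) and Cse1l, the exporter of importin alpha (-0.16 ± 0.06), passed the test as lower, but Cse1l did not without KO replicate 1 or any of the WT replicates, and Xpo7 did not without KO replicate 1, KO replicate 2, WT replicate 1 or WT replicate 2. Xpot, the tRNA exporter on chromosome 10, was higher (0.32 ± 0.06), and lay at -0.13 relative to the median of that chromosome. Xpo1 and Xpo6 did not pass the test (adjusted p = 0.721 and 0.0647), but Xpo6 passed as lower with scaling from autosomal protein-coding genes (adjusted p = 0.0360) and with a filter of at least 1 CPM in 3 libraries (adjusted p = 0.0457). The number of exportins called lower was 1 without KO replicate 1, WT replicate 1 or WT replicate 2. Of the nuclear pore genes 13 were lower and 6 higher, with Ahctf1 and Tpr, both on chromosome 1, at -0.49 ± 0.06 and -0.49 ± 0.07.

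The XPO4 cargo gene Eif5a stood at 918, 1057 and 898 CPM in KO and at 935, 998 and 997 CPM in WT, without a difference past the test (edgeR adjusted p = 0.740). Sox2 was not among the genes with enough reads to test. Of the 12 genes of eIF5A, its hypusine modification and polyamines, 6 were higher and none lower in KO. Spermine oxidase (Smox) stood at 97.2, 106 and 95.5 CPM against 47.1, 49.0 and 47.8 CPM (2.08-fold higher, edgeR adjusted p = 1.37e-08), with no overlap. Antizyme (Oaz1), which restrains polyamine synthesis and uptake, rose 1.68-fold and Dohh, the second enzyme of the hypusine modification, 1.54-fold. Both lie on chromosome 10, and relative to its median their log2 fold changes of 0.75 and 0.62 came to 0.30 and 0.18. Dhps, its first enzyme, was named after its value was seen and had an adjusted p of 0.315, and without KO replicate 2 it passed as lower at -0.20 (adjusted p = 0.0167).

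Ribosomal protein genes shifted by small amounts, mostly to lower levels in KO. Of 75 cytosolic ribosomal protein genes 48 were lower and 3 higher in KO, 1 of them by at least 2-fold, with a median log2 fold change of -0.32. Rpl37a fell from 916 to 590 CPM on average (-0.63 ± 0.07) and Rps7 from 788 to 518 CPM (-0.60 ± 0.08). The 2-fold member, Rps27a, stood at 275, 582 and 226 CPM in KO and at 579, 815 and 834 CPM in WT, where a KO library overlapped the WT range. Ribosomal protein genes have many near-identical pseudogene copies, and their counts are uncertain for that reason. Of 43 translation factors 18 were lower and 8 higher, and between 9 and 22 were lower when single libraries were left out, with the fewest without WT replicate 3 and the most without KO replicate 2.

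Mitosis and repair genes were also lower more often than higher. Of 65 mitosis and spindle genes 34 were lower and 3 higher (median -0.17), with 1 at least 2-fold lower. Of 76 genes of DNA damage response and repair 35 were lower and 6 higher (median -0.18). The 1 repair gene that changed by at least 2-fold was higher in KO. Without WT replicate 2 the number of repair genes that were higher was 3. The spindle gene Aspm fell by 1.01 ± 0.08, Kif14 by 0.78 ± 0.08 and Cenpf by 0.65 ± 0.08 on the log2 scale, all 3 on chromosome 1, whose genes had a median of -0.209. Each of the 3 fell by more than that median. Cdk1, on chromosome 10, rose by 0.57 ± 0.06, or 0.12 relative to the median of that chromosome. The damage kinase gene Atm fell from 46.0 to 26.2 CPM on average (-0.81 ± 0.15) and Brca2, of homologous recombination, from 46.7 to 29.1 CPM (-0.68 ± 0.07). Of 62 replication genes 23 were lower and 8 higher (median -0.10). Among the 24 genes that resolve R-loops, the hybrids of RNA with DNA, 13 were lower and 2 higher, none by 2-fold, and the helicase gene Ddx39b fell most, from 560 to 307 CPM on average (-0.87 ± 0.05, edgeR adjusted p = 2.04e-08). Of 17 regulators of circRNA formation 8 were lower and 2 higher. The RNA-binding protein genes Adar and Dhx9, which act on double-stranded RNA, fell by 0.48 ± 0.09 and 0.42 ± 0.07, and Nova1 rose by 2.08 ± 0.13.

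Secretory, lysosomal and mitochondrial genes shifted the other way. Of 26 genes of the unfolded protein response and ER chaperones 20 were higher and 1 lower (median 0.36, none at 2-fold). The ER chaperone genes Hsp90b1 and Calr rose from 374 ± 11.2 to 720 ± 21.3 CPM and from 671 to 1223 CPM, and the transcription factor gene Xbp1 by 0.87 ± 0.06 on the log2 scale, while the sensor gene Ern1 fell by 0.38 ± 0.10. Of 42 lysosome and autophagy genes 31 were higher and 3 lower (median 0.37), with the autophagy gene Gabarap at 0.76 ± 0.07. Of 74 nuclear-encoded respiratory chain genes 37 were higher and 2 lower (median 0.20), with the ATP synthase genes Atp5d (0.80 ± 0.07) and Atp5l (0.76 ± 0.10) among the largest. Ndufa12, of complex I, stood at 0.96 ± 0.31, and its call was lost without KO replicate 2, WT replicate 2 or WT replicate 3. The values of this paragraph were not taken relative to the median of each gene's chromosome. No respiratory chain gene changed by at least 2-fold. Of 36 genes of the TCA cycle and mitochondrial regulators 15 were higher and 10 lower (4 and 0 by at least 2-fold), which were Ppargc1a, its partner receptor gene Esrrg (2.68 ± 0.63), the pyruvate dehydrogenase kinase gene Pdk4 (1.95 ± 0.09) and the uncoupling protein gene Ucp2 (1.63 ± 0.08).

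The integrated stress response, which cells use to restore amino acid supply, went against the ER chaperones. Of 39 genes tested 28 were lower and 4 higher in KO, with 4 at least 2-fold lower (median -0.30). The cystine transporter gene Slc7a11 (-1.45 ± 0.12), the cysteine synthesis gene Cth (-1.90 ± 0.14), the lipoprotein receptor gene Vldlr (-1.94 ± 0.13) and the transcription factor gene Atf3 (-1.19 ± 0.18) fell most. Of 336 zinc finger genes of the Zfp group 99 were lower and 26 higher, with 5 at least 2-fold lower. In that group 37.2% were called and 1.49% at 2-fold, below the 48.7% and 9.63% over all autosomal genes. Proteasome subunits had 16 of 37 higher and 3 lower (median 0.15), or 10 higher without WT replicate 1. Calls covered 51.4% of them, near the share over all genes. The immunoproteasome subunit gene Psmb9 fell by 1.02 ± 0.18.

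Gene levels differed by chromosome as well as by function. Over 689 tested genes of chromosome 10 the median log2 fold change was 0.445 (1.36-fold), and 66.0% were higher and 8.27% lower in KO. Over 885 genes of chromosome 1 the median was -0.209 (0.865-fold), and 44.3% were lower. Chromosome 3 had a median of 0.161, chromosomes 6, 15 and 12 medians of -0.126, -0.119 and -0.0978, and the other 13 autosomes lay between -0.0629 and 0.0384. Chromosome 10 carries Btbd11, Slc6a15, Sobp, Cd24a and Ccn2 among the genes named above, and each of these rose by far more than the median of its chromosome. The chromosome was given above for some named genes only. Adgrg6, for example, also lies on chromosome 10, and Plekha6 lies on chromosome 1. Unless stated, log2 fold changes of named genes were not taken relative to the chromosome median, so modest ones can include its shift. Taken relative to the median of its chromosome, 556 genes were at least 2-fold higher and 745 at least 2-fold lower. Without the genes of chromosome 10, 514 and 756 were called at 2-fold.

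**Figure D5:**
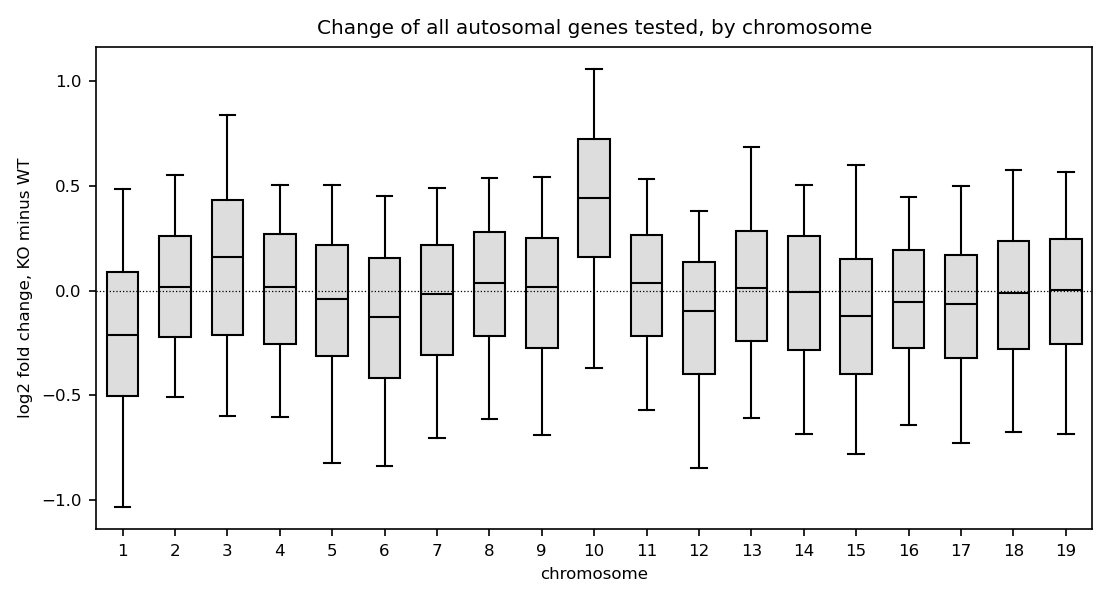
Box plots of the log2 fold change (KO minus WT) of all autosomal genes tested, by chromosome; the line in each box is the median, the box spans the middle 2 quartiles and the whiskers reach the 10th and 90th percentiles. Chromosome 10 lies above 0 (median 0.445) and chromosome 1 below 0 (median -0.209), while most others centre near 0.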

How the data were processed

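The 6 mRNA libraries were analysed, 3 per genotype by their titles. The deposited counts are raw, not normalised, fragments per gene that the authors made with HISAT2 and featureCounts 2.0.0 on mm10 with a GENCODE annotation, per the methods and labels, without use of strand, so reads of overlapping or antisense genes cannot be told apart. Of 55401 genes 55141 matched GENCODE M21 by identifier, and 260 did not. edgeR 4.0.16 (R 4.3.3) was used on all genes kept by filterByExpr (14688, of which 14223 autosomal), with TMM normalisation, the quasi-likelihood test and Benjamini-Hochberg adjustment over all tested genes. CPM are TMM-normalised. A call needs an adjusted p under 0.05, and the 2-fold rule also a log2 fold change of 1 in size. The code was tested on simulated data.

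Members and the 70 gene lists were chosen with earlier results of these data known. Lists can share members, as C3 is in both the NF-kB and the complement list, so the same gene can count in several. Lists described in depth are the 27 with at least 5 tested genes and at least 2 times the background share of 2-fold calls, plus transport and housekeeping lists. Named genes are autosomal and protein-coding: Xpo4, exportins and cargoes, the 15 highest and 15 lowest among called genes whose CPM did not overlap and which averaged 50 reads or more where they were higher, the 10 largest changes at a mean of at least 100 CPM, and up to 4 called members per list and direction. Bounds for genes at 0 reads used 3 reads over the group, and ratios of 1 to 3 reads carry 95% exact intervals. Junction counts deposited for the 4 total circRNA libraries were used only to check labels, and the nuclear and cytoplasmic ones were not used here. Samples sharing a replicate number did not deviate together (correlations 0.0615, 0.0359 and -0.0889), so no pairing was used. Alternatives were RLE and library-size scaling, scaling from autosomal protein-coding genes, other filters, glmTreat, DESeq2 1.42.0, a replicate block, chromosome medians and leaving out each library. A set without chromosome 10 was chosen after seeing the data. Figures used matplotlib 3.10.9.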

Additional observations from a re-analysis of the deposited data

Results flagged for a closer look

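Signals outside the autosomal mRNA comparison appeared in the Y chromosome and in the circRNA libraries. Mean reads over the KO mRNA libraries were 537 for Ddx3y, 310 for Eif2s3y, 146 for Kdm5d and 118 for Uty, against 0 reads in each WT mRNA library. In the 2 total circRNA libraries titled WT, circles inside genes with no read in the WT mRNA libraries had 22 junction reads for Uty, 11 for Ppargc1a and 10 for Mboat1. The 2 total libraries titled KO held circles inside these genes too. Their junction reads were 19 and 24 for Uty, 4 and 8 for Ppargc1a and 9 and 12 for Mboat1. The mRNA and circRNA libraries titled WT therefore differed in whether reads fell within these genes, with circles assigned by position alone. What led to the difference was not tested.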

How the results depend on the processing

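The counts of genes called at 2-fold, and of genes called at an adjusted p under 0.05, stayed within 1.5 times of the reported ones under all alternatives run but glmTreat. Testing against a fold of 1.5 with glmTreat, which asks for a larger change by construction, gave 704 genes higher and 613 lower in place of 3545 and 3382. With single libraries left out, between 3105 and 3703 genes were higher and between 2829 and 3460 lower, and at 2-fold between 621 and 655 were higher and between 720 and 885 lower. Without a filter on low counts, 776 and 1120 genes were called at 2-fold, and DESeq2 called 687 and 779. With the replicate number as a block, which is not a pairing in these libraries, 3524 genes were higher and 3377 lower, and 591 and 766 at 2-fold. Xpo4 lay between 0.10 and 0.34 on the log2 scale when single libraries were left out, and passed the test at 0.34 without KO replicate 2; the cause was not tested. Relative to its chromosome's median, Xpot turned from 0.32 to -0.13. Scaling from autosomal protein-coding genes gave 3347 higher and 3624 lower. Depth limits genes of few reads: 3 reads over a group correspond to 0.0489 CPM in WT and 0.0570 CPM in KO, and intervals and bounds cover counting error only.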
